A study of Homo sapiens with 6 samples.

Results

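The transcripts of 46 genes of the DNA replication machinery were examined in cells labelled as PD-L1-knockout Hep3B that carried either an empty vector or nPD-L1. The genes were chosen by name, as the rows of the deposited expression table that hold origin licensing factors, helicase subunits, polymerases, the sliding clamp and its loader, and enzymes of nucleotide supply. All 46 were found among the 27009 genes of the table, and the rule that picks them names genes and uses no measured value. The list itself was chosen with earlier results of these data known. None of the 46 passed the test between the groups, and the fold changes of all of them were small, from −0.27 to 0.27 on the log2 scale.

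The question posed by the design was how gene expression differs when PD-L1 is forced into the nucleus. Hep3B is a human hepatocellular carcinoma line. In both groups the endogenous PD-L1 gene had been deleted, so the vector cells are themselves knockout cells. nPD-L1 is a PD-L1 in which an LCL stretch was changed to ACA and which is held in the nucleus. It was delivered by a lentiviral vector with a CMV promoter, and the paper names puromycin or G418 for the selection of infected cells. Each group had 3 RNA sequencing libraries, vector replicates 1 to 3 and nPD-L1 replicates 1 to 3, and no time point, dose or animal was involved. The labels do not say whether the 3 libraries of a group came from separate cultures, so the tests measure only the spread between these libraries, which may be technical.

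The deposited values are reads counted on each gene and divided by a size factor of the library, called scaled reads here. They summed to between 18082164.5 and 19682127.9 per library, behind which lay 17427519 to 22253295 reads. The labelled line was checked against marker genes. Of 9 hepatoma markers fixed for this check, 7 were in the table, and AFP and GPC3 had no row there. Of these 7, 5 (ALB, APOA1, APOB, TTR and TF) were below 10 scaled reads in every library. SERPINA1 ranged from 7.91 to 41.4, and FGB ranged from 962 to 1540.5. Most of the liver secretory transcripts that mark a hepatoma line were thus at or close to 0. Of 12 markers of other cell types, 9 were in the table, and 6 of these were below 10 in every library. The summed level of those 9 ran from 142 to 203 in the vector libraries and from 549 to 563 in the nPD-L1 libraries, mostly through COL1A1, a fibrillar collagen (49.9 to 82.8 against 445 to 487). The part of that difference in the results below was not tested. CD274, which encodes PD-L1, was not called different between the groups (adjusted p = 0.338 from limma), with a log2 fold change of −0.76 ± 0.34 (SE) in the direction of less in nPD-L1, so every direction rests on the labels.

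Before S phase, each origin of replication is marked by the origin recognition complex (ORC), on which CDC6 and CDT1 load the MCM2-7 ring, the core of the replicative helicase. Geminin (GMNN) binds CDT1 and keeps origins from being loaded again. CDC45 and the GINS complex then turn the ring into an active helicase, RPA coats the exposed single strand, primase and polymerase alpha start each strand, and polymerases delta and epsilon extend it with the clamp PCNA, which RFC loads. Many of these genes are transcribed as cells enter S phase under E2F transcription factors. Their mRNA levels are therefore widely read as a mark of a proliferating culture, and in a bulk library fewer cells in S phase and less RNA per cell cannot be told apart.

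Because E2F sites are what this gene group is known for, the promoter sequences were searched for short words. RefSeq promoter windows of 300 bases, 250 before and 50 after the start of the gene on GRCh38.p14, were matched for 40 of the 46 genes. MCM4, MCM5, GINS4, POLD3, RPA2 and RPA3 were not matched. An E2F-type word (TTTCCCGC, TTTGGCGC, TTTCGCGC or TTTGCCGC on either strand, overlaps counted) was held by 19 of the 40, or 47.5%, against 3.33% of the 27305 promoters of the RefSeq table. A CCAAT box was held by 23 (57.5%, against 35.7%), and the word TTTGAA, found in many promoters of mitotic genes, by 1, RRM1 (2.5%, against 15.4%). All 4 MCM promoters matched held an E2F-type word, as did 2 of 3 licensing promoters, 3 of 5 helicase activators and 4 of 8 polymerase and primase promoters. So did 2 of 6 clamp and loader promoters, 1 of 6 ORC promoters and 1 of 4 nucleotide enzymes. The rest were 1 of 3 promoters of single-strand binding and Okazaki fragment processing genes, that of LIG1, and the promoter of UHRF1. Shown here are the 200 bases before the start of the 2 genes with the smallest p, neither of which held a word in the window, and of MCM6, the member with the most words (4), and PCNA, the member with the highest level (1 word). Capitals mark the E2F-type words, and in MCM6 each capital run is an overlapping pair. The starts are those of RefSeq. In GENCODE 29 the starts of ORC2 (200963680), GMNN (24774931) and PCNA (5126626) lie inside the sequence shown, that of ORC2 furthest in.
ORC2 promoter, chr2:200963661-200963860, − strand: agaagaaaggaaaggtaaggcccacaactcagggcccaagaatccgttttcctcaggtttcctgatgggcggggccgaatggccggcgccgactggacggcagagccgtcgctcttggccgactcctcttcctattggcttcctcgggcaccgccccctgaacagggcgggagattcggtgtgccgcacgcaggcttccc
GMNN promoter, chr6:24774737-24774936, + strand: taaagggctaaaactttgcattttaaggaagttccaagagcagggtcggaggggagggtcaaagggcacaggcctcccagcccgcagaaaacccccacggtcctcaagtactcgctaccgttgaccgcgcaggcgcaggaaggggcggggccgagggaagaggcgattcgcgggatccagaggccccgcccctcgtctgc
MCM6 promoter, chr2:135876444-135876643, − strand: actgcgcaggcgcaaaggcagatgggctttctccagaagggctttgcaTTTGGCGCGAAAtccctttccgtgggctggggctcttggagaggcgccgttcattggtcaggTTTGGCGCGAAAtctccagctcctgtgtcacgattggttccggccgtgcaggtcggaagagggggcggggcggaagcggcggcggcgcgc
PCNA promoter, chr20:5126623-5126822, − strand: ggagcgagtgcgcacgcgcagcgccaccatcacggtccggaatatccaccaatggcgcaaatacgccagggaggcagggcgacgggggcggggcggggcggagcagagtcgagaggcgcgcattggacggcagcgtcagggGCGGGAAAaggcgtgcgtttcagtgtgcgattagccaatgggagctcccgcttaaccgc

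The members were expressed at high levels. On the scale of scaled reads per kb of gene length, averaged over 6 libraries, 45 of the 46 genes lay above the median of all 15076 genes tested, and the median member stood at percentile 86.1. Gene length here and below is the length deposited with each gene, which for the members is shorter than the span on the chromosome. PCNA was the highest with 5583 scaled reads per kb, followed by MCM7 (2500), the thymidine salvage kinase TK1 (2213) and the flap endonuclease FEN1 (1619). Among the MCM2-7 subunits, which form a ring with 1 copy of each, the level ran from 496 per kb for MCM2 to 2500 for MCM7. The ORC subunits were lower, from 77.0 per kb for ORC4 to 303 for ORC1, and the lowest member was POLA2, a subunit of polymerase alpha, with 61.3 per kb. In GENCODE 29 annotation, 35.1% of the exon bases of POLA2, 23.6% of those of MCM2 and 8.94% of those of MCM7 are shared with other genes.

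**Figure D1:**
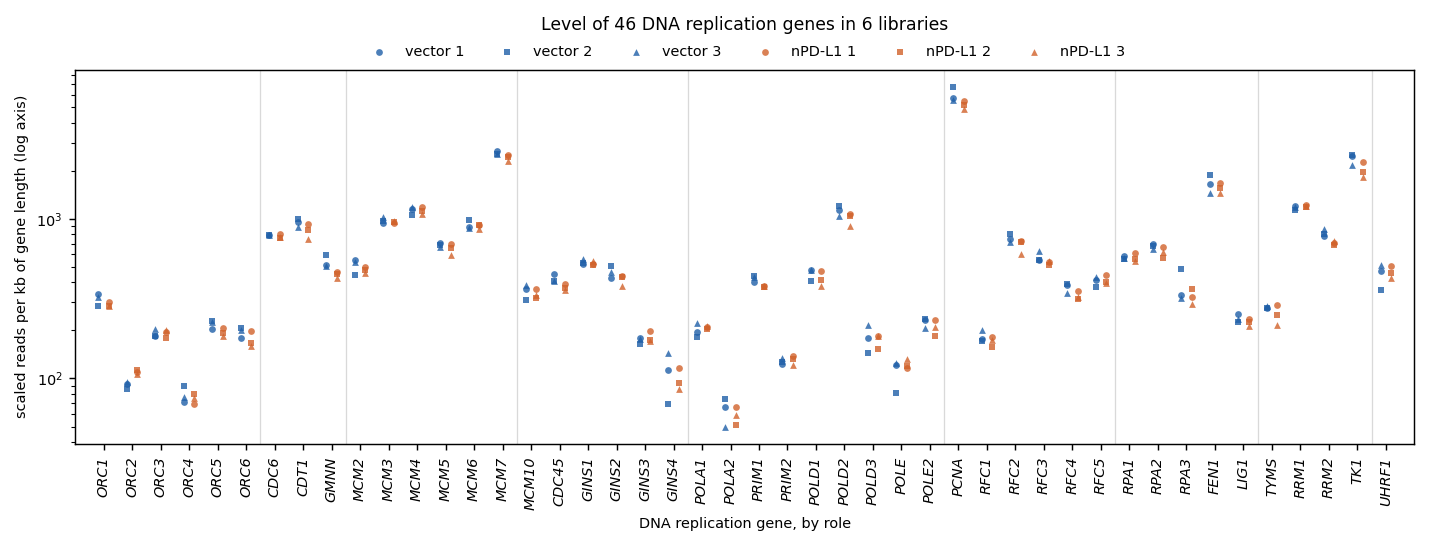
Level of each of the 46 genes in each of the 6 libraries, in scaled reads per kb of gene length on a log axis, with the genes in order of role and grey lines between roles; each point is a library (blue, vector; orange, nPD-L1). PCNA, MCM7 and TK1 stand highest and POLA2 and ORC4 lowest, and the points of a gene lie close together beside the distance between the highest and lowest genes.

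All 46 genes passed the filter of at least 10 scaled reads in at least 3 libraries and were tested. With limma and Benjamini-Hochberg adjustment over all genes tested, 0 of the 46 had an adjusted p under 0.05, against 748 of 15076 genes (4.96%), of which 609 were higher in nPD-L1 (4.04%) and 139 lower (0.922%). The smallest adjusted p among the members was 0.244. At an unadjusted p under 0.05, 1 member was higher and 1 lower, against 14.2% of all genes in either direction (9.53% higher and 4.71% lower). edgeR and DESeq2 on recovered reads also called 0 members, with smallest adjusted p values of 0.227 and 0.261, and each found 1 higher and 1 lower member at an unadjusted p under 0.05, against 14.2% and 13.5% of all genes. At the adjusted threshold edgeR called 5.03% and DESeq2 6.37% of all genes.

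For each gene taken singly, limma gave a 95% interval on the fold change between these libraries. These intervals rest on the deposited scaling and on a spread between libraries that may be technical. The 95% interval of the fold change lay within 2-fold in either direction for all 46 genes, and within 1.5-fold for 45 of them (97.8%). The same narrow bound held for 54.7% of all genes tested and for 82.1% of the 7703 genes whose mean level fell in the range of the members. The gene outside it was GINS4. The member SD between libraries of a group was also small, with a median of 0.0998 on the log2 scale. It was 0.199 for all genes and 0.142 for those 7703 genes, which were not matched to the members gene by gene. For the 47 other replication genes described below, the median SD was 0.132, and 93.6% had an interval within 1.5-fold.

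**Figure D2:**
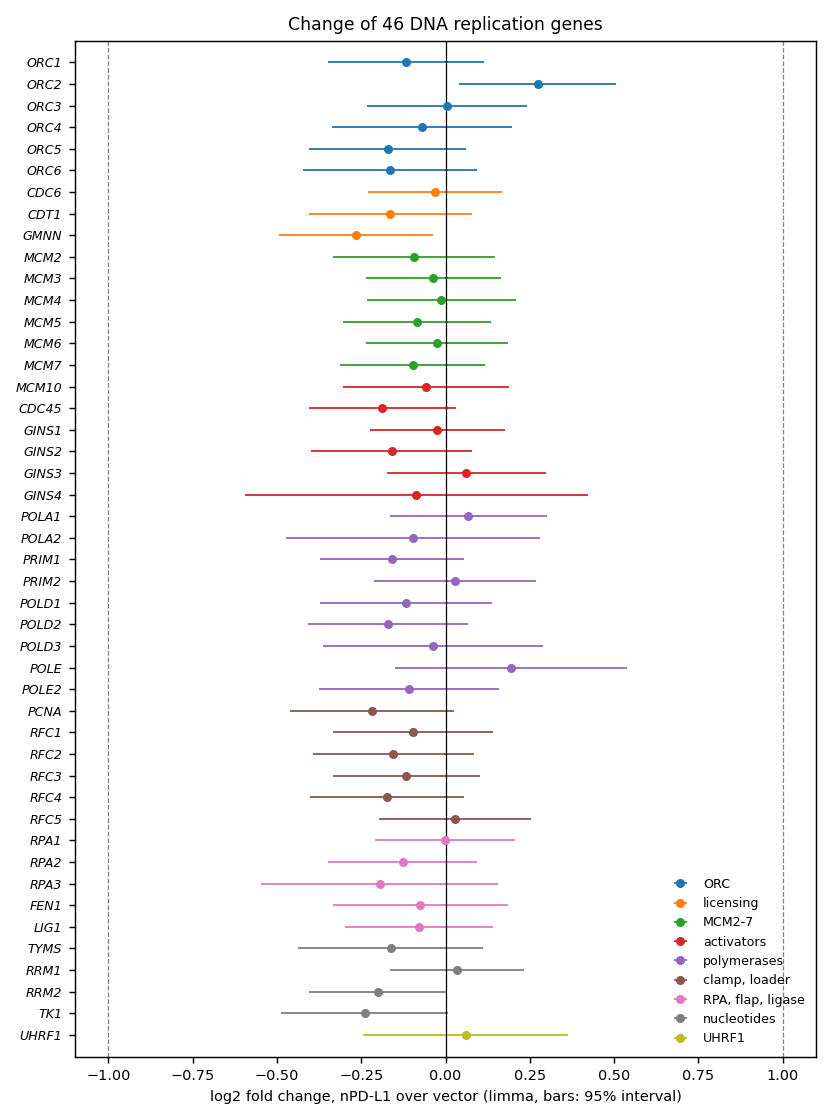
Log2 fold change of nPD-L1 over vector for the 46 genes (limma on 3 libraries per group; points, estimate; bars, 95% interval), coloured by role, with dashed lines at a 2-fold change in either direction. Only ORC2 and GMNN have intervals that leave out 0, and no interval reaches a dashed line.

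The estimates leaned to the lower side. The fold change was below 0 for 37 of the 46 genes (80.4%), against 53.3% of all genes tested, and the median was −0.095, against −0.0188 for all genes. Groups did not overlap for 8 members, with 1 gene higher in all nPD-L1 libraries (ORC2) and 7 lower (GMNN, MCM7, CDC45, PRIM1, PCNA, RFC3 and RRM2), which is 17.4% of the members against 20.6% of all genes. By direction, all genes gave 12% higher and 8.54% lower. A two-sided exact permutation test of 3 libraries against 3 cannot go below p = 0.1, the value that each of these 8 genes has.

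Among the ORC subunits, the scaffold that marks origins, 4 of 6 had a fold change below 0 (median −0.09). ORC2 (ENSG00000115942), on the − strand of chr2:200908973-200963680 in hg38, had 540.0, 501 and 553 scaled reads in vector replicates 1, 2 and 3, and 641, 660.5 and 624 in the nPD-L1 libraries. All nPD-L1 libraries were above all vector libraries. The means were 531 ± 26.8 and 642 ± 18.2 (SD, n = 3 each), and the log2 fold change was 0.27 ± 0.11 (SE), with an interval of 0.04 to 0.51. It was not called (unadjusted p = 0.0262, adjusted p = 0.244 from limma). ORC5, another core subunit, had 762, 848 and 843 scaled reads against 773, 718 and 686. Its groups overlapped, because nPD-L1 replicate 1 exceeded vector replicate 1, and its log2 fold change was −0.17 ± 0.11 (SE).

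The licensing factors and their inhibitor were all below 0, with a median of −0.16. GMNN (ENSG00000112312), on the + strand of chr6:24774931-24786099, had 1282, 1464 and 1246 scaled reads in the vector libraries, against 1146, 1119 and 1049.5 in the nPD-L1 libraries. Every nPD-L1 library was below every vector library, and vector replicate 2 was the highest. The log2 fold change was −0.27 ± 0.10 (SE), from −0.49 to −0.04, and it did not pass the correction (unadjusted p = 0.0268, adjusted p = 0.249 from limma). CDT1, which geminin blocks, had 3172, 3336 and 2948 against 3115, 2852 and 2496 scaled reads. The groups overlapped at the upper end of nPD-L1, and the log2 fold change was −0.16 ± 0.11 (SE), or −0.08 without nPD-L1 replicate 3. CDC6, the loader that works beside CDT1, was the steadiest of all 46 genes within groups (SD 0.0341 on the log2 scale), with 4386, 4420.4 and 4417 against 4474, 4194 and 4277.

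All 6 subunits of the MCM2-7 ring had a fold change below 0, but by little, with a median of −0.06 and a smallest adjusted p of 0.717 from limma. MCM7 lay at the low end, with 11612, 11176 and 11206 scaled reads in the vector libraries, against 11052, 10638 and 10095 in the nPD-L1 libraries. The groups did not overlap, yet the gap was narrow and the log2 fold change was −0.10 ± 0.10 (SE). MCM4 lay at the other end, with 8059.6, 7405 and 8245 against 8283, 7763 and 7446 and a log2 fold change of −0.01 ± 0.10 (SE). Its highest and second lowest values were both nPD-L1 libraries, so the groups were interleaved. For each of the 6 subunits the 95% interval of the fold change stayed between −0.33 and 0.21.

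Among the proteins that turn the ring into an active helicase, 5 of 6 were below 0, with a median of −0.07. CDC45 had 1289, 1167 and 1162 scaled reads against 1110.1, 1043 and 1022. Its groups did not overlap, although vector replicates 2 and 3 came close to nPD-L1 replicate 1, and the log2 fold change was −0.19 ± 0.10 (SE; adjusted p = 0.45 from limma). GINS2 had 1399, 1648 and 1512 against 1439.5, 1411 and 1232, and GINS3 had 913, 836 and 906 against 1019, 885 and 873. Both overlapped, with log2 fold changes of −0.16 ± 0.11 and 0.06 ± 0.11 (SE). That of GINS2 was −0.10 without vector replicate 2 and −0.09 without nPD-L1 replicate 3, and that of GINS3 was −0.0089 without nPD-L1 replicate 1. GINS4 was the most variable member, with 621, 379 and 787 scaled reads against 634, 516 and 474. Vector replicates 2 and 3 held its lowest and its highest value, so that its within-group SD was 0.408 on the log2 scale and its interval ran from −0.60 to 0.42. Its log2 fold change was −0.09 ± 0.23 (SE), and it was −0.38 without vector replicate 2 and 0.15 without vector replicate 3. In GENCODE 29 annotation, 23.6% of its exon bases are shared with other genes.

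The polymerase and primase subunits had a median of −0.10, with 6 of 9 below 0. PRIM1, the catalytic primase subunit, had 974, 1074 and 1051 scaled reads against 928, 915 and 929.9. The nPD-L1 libraries were tight and all below the vector libraries, and the log2 fold change was −0.16 ± 0.10 (SE; adjusted p = 0.534 from limma). In the annotation 21.6% of its exon bases overlap other genes. POLD2, an accessory subunit of polymerase delta, had 4215, 4477 and 3854 against 3969.9, 3856 and 3336, a log2 fold change of −0.17 ± 0.11 (SE) that was −0.09 without nPD-L1 replicate 3. POLE, the catalytic subunit of polymerase epsilon, had the largest deposited gene length of the members (16609 bases). It had 2005, 1349.6 and 2079.5 scaled reads against 1928, 1982 and 2204. Vector replicate 2 was far below the other 5 libraries. The log2 fold change was 0.19 ± 0.16 (SE) with that library and −0.0049 without it.

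PCNA, the sliding clamp, and the 5 RFC subunits that load it had a median of −0.14. PCNA had 8448, 9917 and 8166 scaled reads in the vector libraries, against 8020.4, 7585 and 7141 in the nPD-L1 libraries. The groups did not overlap, with vector replicate 2 far above the rest, and the log2 fold change was −0.22 ± 0.11 (SE; adjusted p = 0.428 from limma), or −0.13 without that library. RFC4 had 1153, 1172 and 1029.9 against 1063, 944 and 966 and overlapped, with a log2 fold change of −0.17 ± 0.10 (SE). RFC5 had 1338, 1213 and 1399 against 1437, 1299 and 1293, the only member of this group above 0 (0.03 ± 0.10, SE), and it was −0.03 without vector replicate 2. RFC3 did not overlap either, with a log2 fold change of −0.12 ± 0.10 (SE).

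The single-strand binding proteins, FEN1 and the ligase LIG1 had a median of −0.08 and no gene without overlap. RPA1, the large RPA subunit, had 3214, 3088 and 3142 scaled reads against 3378, 3089 and 2982, and its interval was −0.21 to 0.21. RPA3, the small subunit, had 1080.0, 1569 and 1037 against 1052, 1176 and 946. Its highest value was that of vector replicate 2, and the log2 fold change was −0.19 ± 0.16 (SE) with that library and −0.0058 without it.

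The enzymes of nucleotide supply had the lowest median of the 9 roles, −0.18. RRM2, the regulated subunit of ribonucleotide reductase, had 4173, 4253 and 4598 scaled reads in the vector libraries, against 3780.0, 3665 and 3879.9 in the nPD-L1 libraries. The groups did not overlap, and the log2 fold change was −0.20 ± 0.09 (SE; adjusted p = 0.365 from limma). TK1 had 4631, 4696 and 4044 against 4229.6, 3685 and 3426, with an overlap through vector replicate 3 and nPD-L1 replicate 1 (log2 fold change −0.24 ± 0.11, SE; adjusted p = 0.372 from limma). RRM1, the large subunit of the same reductase as RRM2, had 5023, 4759 and 4954 against 5126, 4934 and 5033, a log2 fold change of 0.03 ± 0.09 (SE). In the annotation 46.6% of the exon bases of TYMS, the thymidylate synthase, and 20.2% of those of RRM2 are shared with other genes, and reads of overlapping genes cannot be told apart where the strand setting of the counting is not known. UHRF1, which guides maintenance methylation behind the fork, had 2429.5, 1848 and 2636 against 2608, 2349 and 2188. Its log2 fold change was 0.06 ± 0.14 (SE), and −0.09 without vector replicate 2.

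Genes with an E2F-type word in the promoter, described above by sequence, were set beside those without one. The median log2 fold change was −0.0789 over the 19 genes with a word, 14 of them below 0, and −0.118 over the 21 genes without one, 17 of them below 0. The difference between these medians was not tested.

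The lean to the lower side was not shared by all nPD-L1 libraries. For each library the log2 difference of each gene from its own mean over 6 libraries was taken. The median over the 46 genes was 0.0404, 0.0244 and 0.0503 in vector replicates 1, 2 and 3, and 0.0422, −0.0528 and −0.0824 in nPD-L1 replicates 1, 2 and 3. nPD-L1 replicate 1 thus sat with the vector libraries, and 36 of its 46 genes were above their own mean, the most of any library. In nPD-L1 replicates 2 and 3, 7 and 8 genes were above their mean. The lowest value of the 6 was in nPD-L1 replicate 3 for 20 genes, in vector replicate 2 for 12 and in nPD-L1 replicate 2 for 10. Of all 15076 genes tested, these libraries held the lowest value for 3116, 4218 and 1809.

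**Figure D3:**
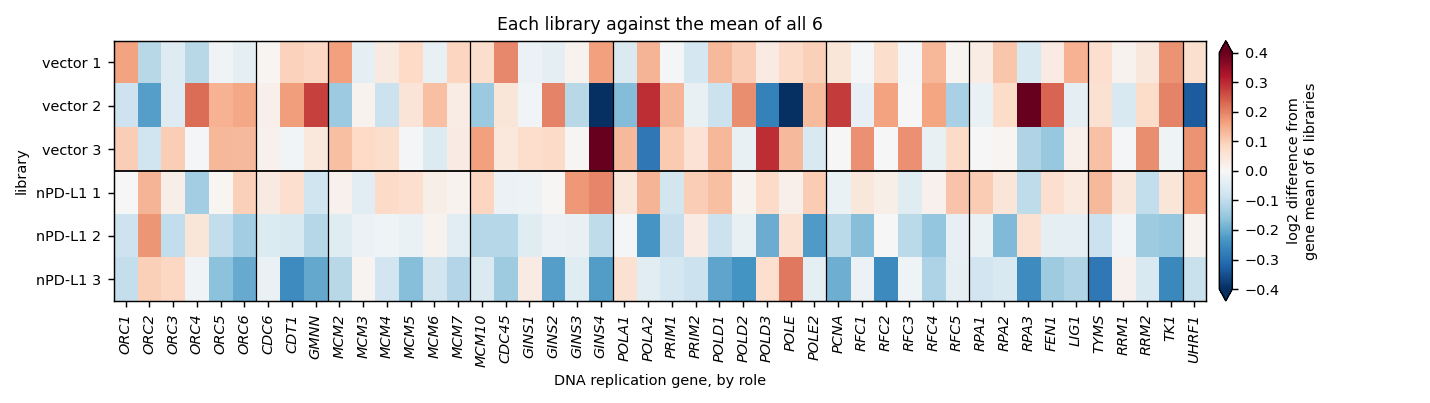
Log2 difference of each of the 46 genes (columns, in order of role) from its own mean over the 6 libraries (rows); red is above and blue below the mean, and the darkest colours lie at or beyond the ends of the scale. nPD-L1 replicates 2 and 3 are mostly pale blue, and nPD-L1 replicate 1 is mostly pale red. Vector replicate 2 reaches both ends of the scale, and GINS4 in vector replicate 3 also reaches the red end.

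The pairs of libraries gave the same picture. The median absolute log2 difference over the 46 genes was 0.0595 between vector replicate 1 and nPD-L1 replicate 1, the closest pair of all 15 although it crosses the groups, and 0.0787 between vector replicate 3 and nPD-L1 replicate 1. Within groups it ran from 0.0875 (nPD-L1 replicates 2 and 3) to 0.176 (vector replicates 2 and 3). The widest pair was vector replicate 2 and nPD-L1 replicate 3, with 0.201. Without nPD-L1 replicate 1 the median fold change of the members was −0.13 and 18 members did not overlap (39.1%, against 32.1% of all genes in that fit), and without nPD-L1 replicate 3 the median was −0.06. No member was called in either fit.

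Related genes were read in the same way, library by library. A list of 47 other replication genes had medians of 0.0778, −0.0096 and 0.0941 in the vector libraries, against 0.0147, −0.087 and −0.0436 in the nPD-L1 libraries. A list of 32 mitotic genes, which act after replication is complete, spread more widely, with 0.165, −0.104 and 0.246 against 0.152, −0.27 and −0.104. In the mitotic list, nPD-L1 replicate 1 again stood with vector replicates 1 and 3, and vector replicate 2 stood with nPD-L1 replicate 3. The median over all genes tested stayed within 0.0095 of 0 in every library.

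**Figure D4:**
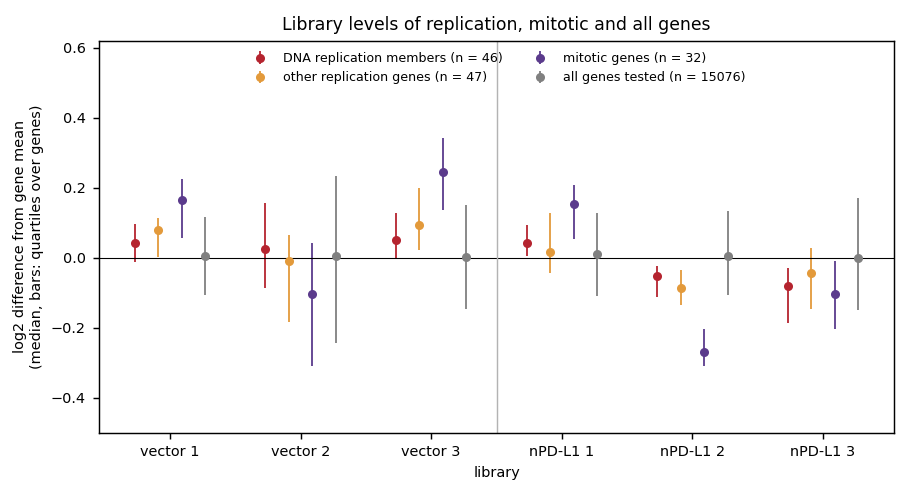
Median log2 difference from the gene mean in each library (points) with the quartiles over genes (bars), for the 46 DNA replication genes, 47 other replication genes, 32 mitotic genes and all 15076 genes tested; the vertical line separates vector from nPD-L1. The replication and mitotic medians of nPD-L1 replicate 1 are above 0 and those of nPD-L1 replicates 2 and 3 below it, while the medians of all genes stay close to 0.

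None of the 47 other replication genes was called in the fit of all 6 libraries, and 33 of them (70.2%, against 53.3% of all genes) had a fold change below 0 (median −0.08, smallest adjusted p = 0.212 from limma). At an unadjusted p under 0.05, 0 were higher and 5 lower (DBF4, DCTPP1, TIPIN, DTYMK and RNASEH2C), against 9.53% and 4.71% of all genes. DBF4, the activating subunit of the kinase that fires origins, had 1083, 932 and 1042 scaled reads against 872, 789 and 843, a log2 fold change of −0.29 ± 0.10 (SE). DCTPP1, which clears modified cytidine nucleotides, had 1846, 2109.7 and 1795 against 1669, 1637 and 1387 (−0.29 ± 0.11, SE), and the fork protection factor TIPIN had 959.9, 933 and 1091 against 871, 823 and 793 (−0.26 ± 0.11, SE). In all 3 genes the groups did not overlap, and none passed the correction. Without vector replicate 2, DBF4 alone of the 47 was called by limma. All 8 genes of replication-coupled chromatin assembly and methylation were below 0, with a median of −0.10. The other parts of the list were more mixed. Below 0 were 8 of 10 fork protection genes, 5 of 8 firing factors and 4 of 6 genes of flap, primer and supercoil removal. The same held for 4 of 7 further nucleotide enzymes and 4 of 8 further polymerase subunits and MCM relatives.

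Of the 32 mitotic genes, 0 were called by limma, 28 were below 0 (87.5%, against 53.3% of all genes), and the median was −0.16. At an unadjusted p under 0.05, 0 were higher and 5 lower, against 9.53% and 4.71% of all genes. The mitotic kinase AURKB had the smallest p, with 1918, 1655 and 2095 scaled reads against 1638, 1277 and 1344 and a log2 fold change of −0.41 ± 0.13 (SE; adjusted p = 0.116 from limma). It was called without vector replicate 2, as was ESPL1, the separase, and with the replicate number as a block. SPC24 and NUF2, subunits of the NDC80 kinetochore complex, followed with −0.31 ± 0.11 and −0.32 ± 0.11 (SE). SPC24 had 737, 754 and 699 scaled reads against 648, 566 and 553, and NUF2 had 1069, 1011 and 1100 against 964, 767 and 829.

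Calls did occur in the list of cyclins, E2Fs and inhibitors, of which 25 of 29 genes were tested. With limma, 1 gene was called higher and 1 lower, against 4.04% and 0.922% of all genes. At an unadjusted p under 0.05 from limma, 5 were higher and 2 lower, against 9.53% and 4.71% of all genes. Groups did not overlap for 36% of the list, against 20.6% of all genes. CDKN1A, which encodes the cyclin-dependent kinase inhibitor p21, had 2747, 3164 and 2379.9 scaled reads in the vector libraries, against 5967, 7149 and 6190.2 in the nPD-L1 libraries, and rose with a log2 fold change of 1.22 ± 0.12 (SE; adjusted p = 0.000169 from limma). CDKN1B, which encodes the related inhibitor p27, had 1197, 1294 and 1350.0 against 535, 818 and 612 and fell by 0.99 ± 0.15 (SE) on the log2 scale (adjusted p = 0.00255 from limma). Their changes were therefore in opposite directions, and no replication gene was called beside them. CCNE1, the cyclin E that partners CDK2 at the start of S phase, had 398, 463 and 426 against 567, 557 and 594 and was not called (log2 fold change 0.42 ± 0.11, SE; adjusted p = 0.0685 from limma). It was called in DESeq2, with the length trend removed, with the replicate number as a block, and without vector replicate 2.

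Vector replicate 2 stood apart from the other libraries, and its difference followed gene length. Of the 46 genes, 17 had their highest value and 12 their lowest value in this library. Of all 15076 genes tested, 4444 had their highest and 4218 their lowest value there. Across the 46 genes, Spearman's rho between the log2 difference of this library and gene length was −0.524, against −0.367 over all genes. A relation with length of the other sign was seen in nPD-L1 replicate 3, with 0.445 across the members and 0.275 over all genes. For the members rho was 0.296 and 0.307 in nPD-L1 replicates 1 and 2, and −0.169 and 0.202 in vector replicates 1 and 3. These are descriptions across genes that share a library, not independent points. The 23 members longer than the median of 4147.5 bases had a median difference of −0.0625 in vector replicate 2, and the 23 shorter ones 0.137. The fold change of the members also followed length, with a rho of 0.598 (0.278 over all genes) and medians of −0.0573 in the longer and −0.159 in the shorter genes.

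**Figure D5:**
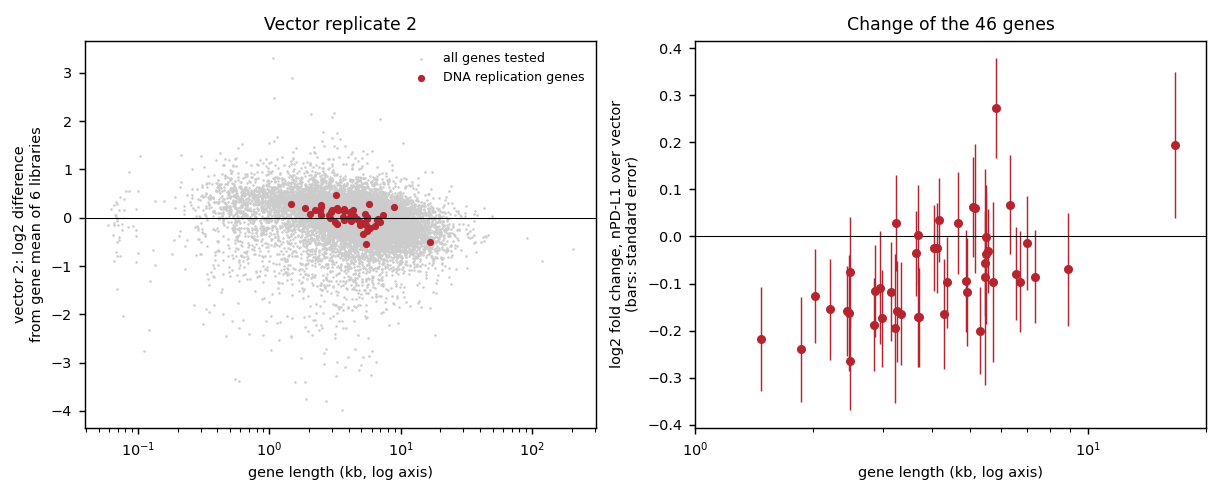
Left, log2 difference of vector replicate 2 from the mean of 6 libraries against gene length in kb (log axis), for all genes tested (grey) and the 46 replication genes (red). Right, log2 fold change of nPD-L1 over vector against gene length for the 46 genes, with bars of 1 standard error; in vector replicate 2 the longer members lie lower, and the fold change of the longer members lies closer to 0 or above it.

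The call did not turn on that library. Without vector replicate 2 the median fold change of the members was −0.11 with 38 of 46 below 0, and 0 were called. With a trend on gene length removed from each library it was −0.12 with 42 of 46 below 0, while the median of all genes shifted to −0.0664, and 0 were called. With both changes together, chosen after seeing the data, the median was −0.13 with 44 below 0, against a median of −0.0466 for all genes, and 17 members did not overlap (37%, against 34.7% of all genes). The smallest adjusted p, that of RRM2, was then 0.0724 from limma.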

How the data were processed

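RNA from PD-L1-knockout Hep3B cells was sequenced in 6 libraries (vector, 3; nPD-L1, 3), grouped by sample title. Per the labels, TRIzol Plus extraction and an NEBNext Ultra kit were used. The submitters' processing notes name CASAVA, HISAT2 2.0.5 and hg38; the counter, annotation and strand setting are not given in the sources used here. The authors deposited a signal, the reads per gene divided by a size factor, although the table calls it raw. Group means, which equal the means of the 3 libraries, and columns of the authors' own fold change and p-values were not used. All values above 0 in all 6 libraries (100%) were whole multiples of the value of 1 read (0.840 to 1.13) within 0.001; in vector replicate 1 and nPD-L1 replicate 2 that value lies so close to 1 that recovery is less certain. These reads went into edgeR 4.0.16 and DESeq2 1.42.0 only.

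limma 3.58.1 (R 4.3.3, trend and robust moderation) was fitted to log2(value + 1) of the 15076 genes with at least 10 in at least 3 libraries, with no covariate. A gene was called when its p, adjusted by the Benjamini-Hochberg method, was under 0.05. Fold changes are nPD-L1 over vector on the log2(value + 1) scale. Promoters came from RefSeq on GRCh38.p14, and exon overlaps from GENCODE 29, in which all 46 genes have the deposited start and end. 20 of the 46 share exon bases with another gene, and 8 have pseudogenes of their name. The members and all lists were chosen with earlier results of these data known. Values in every library are given for the 12 members with the smallest p, the extremes of each role, and the most and least variable member. They are also given for called genes, or the 3 with the smallest p, of the other lists. After their values were seen, CCNE1 was added with its values, and CCND1, ESPL1, DTYMK and RNASEH2C by name only. Scripts were tested on simulated data. Same-numbered libraries had correlations of −0.013, 0.229 and 0.131 in their deviations from the group means. Libraries of different number were not set beside these, so the values cannot decide whether the numbers are pairs. The reported fit did not pair them, and a fit with the replicate number as a block is given below. The chi-square per degree of freedom between libraries of a group was at least 8.35, so none was a duplicate. 1 marker result is not reported here.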

Additional observations from a re-analysis of the deposited data

How the results depend on the processing

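None of the 46 genes was called at an adjusted p under 0.05 under any scaling, filter, pseudocount, moderation, block, length trend, left-out library or count model; the smallest adjusted p of a member ran from 0.0724 to 0.518, and 2 had an unadjusted p under 0.05. The median fold change stayed below 0 in all of them (−0.13 to −0.06 with each library left out). Members without overlap, 8 in the report, numbered 15 with upper-quartile factors (32.6%, against 21.8% of all genes), 17 with vector replicate 2 left out and the length trend removed (37%, against 34.7%), and 8 to 18 with each library left out: 18 without nPD-L1 replicate 1 (39.1%, against 32.1%), 16 without vector replicate 3 (34.8%, against 35.4%), 12 without vector replicate 1 (26.1%, against 26.8%), 11 without vector replicate 2 (23.9%, against 32.5%), 9 without nPD-L1 replicate 2 (19.6%, against 27.7%) and 8 without nPD-L1 replicate 3 (17.4%, against 26.2%). The range of the members' library medians, 0.133, was 0.180 after the length trend and 0.182 with both changes. Over all genes, 748 calls became 1185 with the replicate block, 2146 without adjustment and 427 to 1037 with each library left out (485 without vector replicate 1, and 440, 489 and 427 without nPD-L1 replicates 1, 2 and 3). The replicate block left the members and the other replication genes at 0 calls and raised the calls in the mitotic and cyclin lists from 2 to 5 (AURKB, CCND1, CCNE1, CDKN1A and CDKN1B), which were 12 without adjustment, 8 with both changes and 2 to 5 with each library left out. The other replication genes had 5 without adjustment, 1 with both changes and 0 to 1 with each library left out, DBF4 both times. The fold change of 28 of the 46 members kept its sign in all of these fits, and that of 18 turned in at least 1: 1 with upper-quartile factors (ORC3), 1 with TMM, edgeR and DESeq2 (RPA1), 5 after the length trend (ORC3, POLA1, PRIM2, RRM1 and UHRF1), 9 with both changes, and 2 to 9 with a library left out (9 without vector replicate 2). Of the members named by rule, RFC5 was −0.0589, GINS3 −0.0279 and POLE −0.0486 with both changes, UHRF1 −0.0023 and RRM1 −0.0045 after the length trend and −0.141 and −0.0243 with both, and RPA1 0.0091 with TMM, 0.0106 in edgeR and 0.0015 in DESeq2. With each library left out, the log2 fold changes that turned ran from −0.0289 to 0.0739 (RFC5), −0.0089 to 0.102 (GINS3), −0.0913 to 0.165 (UHRF1), −0.0594 to 0.0224 (MCM4), −0.0049 to 0.307 (POLE), −0.0525 to 0.0376 (RPA1) and −0.380 to 0.145 (GINS4). The cause of these shifts was not tested. limma on the libraries of the count models is the reported fit, since these models used all 6, with recovery less certain in vector replicate 1 and nPD-L1 replicate 2. The count models give no within-group SD or overlap of their own, so those values were not recomputed with them.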
